A study of Bos taurus with 9 samples.

Results

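Mitosis and kinetochore genes encode the proteins that take a cell into division, build the spindle, attach chromosomes to it and cut the cell in 2. Of 44 genes listed by name, 33 had a named probe set on the array, and CDC25B, NUF2, SPC25, INCENP, PRC1, ANLN, RACGAP1, PTTG1, SMC2, PBK and DLGAP5 had no named probe set and were not analysed here. Every gene whose symbol starts with CENP (11 genes) or KIF (19 genes) was added, which gave 63 of the 9155 genes with a named probe set. The symbol rule also took in 12 KIF genes, most of them known for cargo transport, cilia or binding to kinesins, so that these are given apart from the 51 genes of mitosis. KIF2A, which also works at spindle poles, was placed among the 12. The split was made with earlier results of these data known. Where several named probe sets stood for a gene, as for 24 of the 63, the values given are those of the set with the highest mean signal.

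The kinase CDK1, bound to cyclin B, drives entry into mitosis. Condensin then compacts the chromosomes, and the kinetochore, a protein plate built on the centromere, catches spindle microtubules through the NDC80 complex. The spindle checkpoint holds division until every chromosome is attached, after which CDC20 directs the anaphase promoting complex to mark cyclin B for destruction, and separase frees the sister chromatids. Most of these transcripts are made late in the cell cycle and are low in cells that do not divide. Chondrocytes of mature articular cartilage rarely divide, whereas marrow stromal cells multiply readily in culture.

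RNA of 9 cultures was measured on single-colour bovine arrays, with 3 groups of 3 and 1 array of each group per donor. The donors were calves aged 3 to 6 months, and no genotype or strain is given in the labels. Mesenchymal stem cells (MSCs) from bone marrow were seeded in agarose, a gel that keeps cells apart, and harvested at once (MSC day 0), or kept for 28 days in chemically defined medium with 10 ng/mL TGF-beta3, a growth factor that induces cartilage genes (MSC day 28). Chondrocytes from articular cartilage of the same donors went through the same 28 days in agarose and TGF-beta3 (chondrocytes day 28). Chondrocytes at day 0 and MSCs kept without TGF-beta3 were not analysed here, so that time, gel culture and growth factor cannot be told apart in the MSC comparison. In bulk RNA, fewer dividing cells and less transcript per dividing cell cannot be told apart either.

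Values are on the deposited log2 scale, where 1 unit is a 2-fold change, and differences carry the standard error (SE) of a limma fit with n = 3 arrays per group. A gene is called where its p, adjusted by Benjamini-Hochberg over 24016 probe sets, is under 0.05, and values per array are given in the order donor 1, 2, 3. Of 8 cartilage markers, 6 were measured, and their summed level (with log2 turned back) was 440 to 765 at MSC day 0, 25217 to 25866 at MSC day 28 and 24197 to 28575 in chondrocytes. CNMD among them had means of 4.31, 5.99 and 9.91 and was called 3.93 higher in chondrocytes than in MSC day 28. The other 5 were not called there. For blood cells the sum of 10 measured markers was 84 to 246, 136 to 155 and 335 to 471 in the same order. PTPRC, CD3E, CD79A, HBB and ITGAM among them lay below 2.58, the 25th percentile of mean log2 signal, in all 3 groups. The myeloid markers CSF1R and CD14 were not low: CSF1R had means of 4.39, 6.01 and 7.61, called higher at each step, and CD14 of 4.62, 4.83 and 7.29, called higher in chondrocytes than in MSC day 0 (adjusted p = 0.0167) and not than in MSC day 28 (adjusted p = 0.0551). CD68, TYROBP and AIF1 went the other way, each called higher at MSC day 0 than in both day 28 groups. For TYROBP (5.43, 5.92 and 3.22 at MSC day 0) and AIF1 (4.91, 5.28 and 2.45) the excess lay mainly in donors 1 and 2. The donor 3 array of TYROBP was below its chondrocyte array of that donor (3.43). The 8 endothelial markers summed to 176 to 255, 364 to 408 and 460 to 544, with CDH5, KDR and EMCN below that percentile throughout. TEK (means 4.15, 6.36 and 6.34) and ERG (7.32, 8.04 and 8.56) were called higher in both day 28 groups than in MSC day 0. ERG was the highest of the 8 in every group, so that the sum followed mostly ERG. PECAM1 (2.66, 2.48 and 2.45) and VWF (2.55, 2.56 and 2.6) stayed low. The 8 markers of marrow stroma summed to 1864 to 2932, 1381 to 1470 and 2069 to 2763, with LEPR below that percentile throughout. NT5E, the highest of them, had means of 10.68, 9.87 and 10.79. CXCL12 went another way, with means of 8.03, 3.96 and 3.09, as did VCAM1 with 4.85 (SD 2.26), 2.21 and 2.37. The part of these other cell types in the differences below was not tested. The hybridisation control bioC averaged 8.8 on replicate 3 of MSC day 28 and of chondrocytes day 28 against 11.66 on the other 7 arrays. The log2 excess of 3′ over 5′ probes of 6 control transcripts was 1.34 ± 0.23 (SD, n = 3) at MSC day 0, 1.81 ± 0.2 at MSC day 28 and 1.81 ± 0.19 in chondrocytes.

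**Figure D1:**
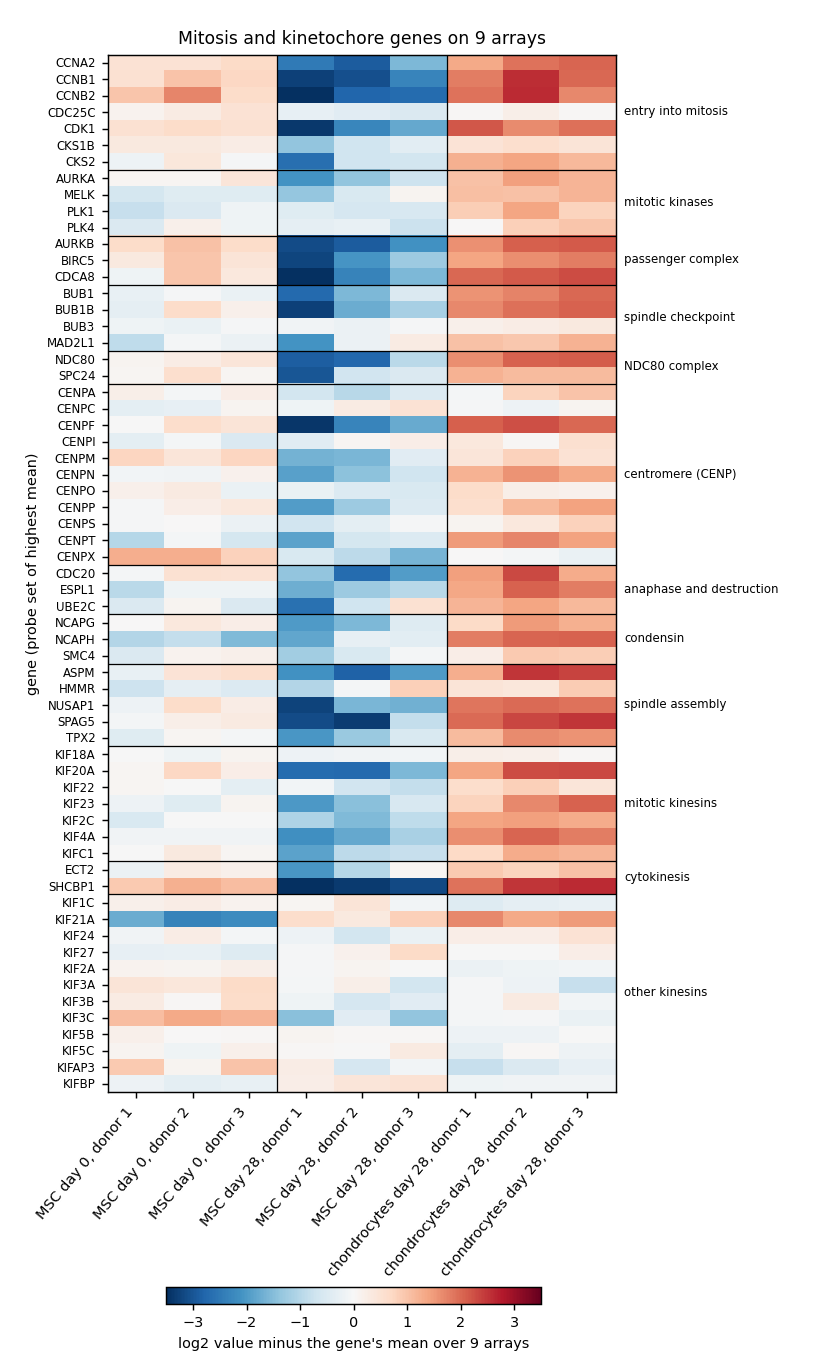
Log2 value of each of the 63 genes (rows, grouped by role) on each of the 9 arrays (columns, 3 per group), minus the gene's own mean over the 9 arrays; red is above that mean and blue below it. In the 51 rows of mitosis genes the 3 columns of MSC day 28 are mostly blue and those of chondrocytes mostly red, while the 12 rows of other KIF genes at the bottom show both colours in each group.

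Most mitosis genes were highest in chondrocytes, intermediate in MSCs at day 0 and lowest in MSCs at day 28. By group means, 43 of the 51 mitosis genes took this order, as did 1 of the 12 other KIF genes (KIF24) and 11% of all genes. For 29 of the 63 genes, all of them mitosis genes, the 3 groups followed this order with no overlap between arrays, against 1.52% of all genes. In 22 of the 63 genes all 3 steps of the order passed the test. The 8 genes with no call in any comparison were CENPC, HMMR, KIF18A, MAD2L1, UBE2C, KIF2A, KIF5B and KIF5C. How many of all genes had either of these patterns of calls was not counted.

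Over the 28 days of culture in agarose with TGF-beta3, most mitosis genes fell in MSCs. Of the 51 mitosis genes 31 fell, 0 rose and 20 did not pass the test, with a median difference of -1.33 on the log2 scale and a range of -4.51 to 0.42, and 34 lay below MSC day 0 on every array. SHCBP1, CCNB2, CCNB1, AURKB and CDK1 had the largest measured falls, SHCBP1 and AURKB to a low signal. Of the 63 genes together 33 fell and 3 rose, against 21% and 13.5% of all 9155 genes, and the median of all genes was -0.11. MSC day 28 lay below MSC day 0 without overlap in 39 of the 63 genes and above it in 3, against 28.8% and 18.1% of all genes. By donor, the median difference of the 51 genes was -1.84, -1.29 and -0.83 for donors 1, 2 and 3, and 47, 45 and 41 of them were lower at day 28. The 3′ excess of the control transcripts also differed between these groups, and its part in the result was not tested. When each array was left out in turn, the calls of BUB1, CENPA, ESPL1, TPX2, KIF3B and KIF27 were lost in 4 to 8 of the 9 fits (adjusted p up to 0.124). Without replicate 1 of MSC day 28, NCAPH and CENPC were called higher at day 28 (adjusted p = 0.0269 and 0.0479), and KIF22 lower (adjusted p = 0.0313). In all, 10 genes without a call gained one in 1 to 3 of the fits, also CENPO, CKS2, ECT2, KIF23, KIF3A, KIFAP3 and SPC24.

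After the same 28 days, chondrocytes held more mitosis transcripts than MSCs of the same donors. Of the 51 mitosis genes 42 were called higher in chondrocytes and 0 lower, and 40 of the calls were at least 2-fold. The median difference was 2.54 on the log2 scale, with a range of -0.26 to 5.77, and 48 of the 51 lay above MSC day 28 on every array. The 9 genes without a call were CDC25C, UBE2C, CENPC, CENPI, CENPX, KIF18A, HMMR, BUB3 and MAD2L1. Of the 63 genes together 45 were higher and 1, KIFBP, was lower, against 8.35% and 4.81% of all genes, whose median difference was -0.02. Groups did not overlap in 52 genes higher in chondrocytes and in 4 lower, against 16.9% and 15.1% of all genes. The 3′ excess was the same, 1.81, in both groups as a mean of the 6 control transcripts, but single ones differed. For gapd it was 2.0, 1.37 and 2.05 at MSC day 28 and 1.07, 1.06 and 1.41 in chondrocytes. For eif4e it was 4.64, 4.33 and 4.6, then 5.24, 5.21 and 4.53. Its part in the result was not tested. Leaving out 1 array at a time, the calls of CENPA, CENPO, CENPS, ECT2, PLK4, SMC4, SPC24, KIF21A, KIF24, KIF3C and KIFBP were lost in 2 to 8 of the 9 fits (adjusted p up to 0.154). Calls as higher in chondrocytes were gained by UBE2C, MAD2L1 and HMMR without replicate 3 of MSC day 28 and by CENPX without replicate 1 (adjusted p = 0.0239). Also without that replicate 3, KIF1C was called lower in chondrocytes (adjusted p = 0.0487).

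Chondrocytes at day 28 also exceeded MSCs at day 0 in many of these genes. Of the 51 mitosis genes 30 were called higher in chondrocytes, 1 (CENPX) was lower and 20 did not pass the test, with a median difference of 1.19. On every array 42 of the 51 lay above MSC day 0. Of the 63 genes together 31 were higher and 5 lower, against 15.1% and 20.9% of all genes, and 45 lay above and 7 below without overlap, against 21.6% and 32.3%. The median of all genes was -0.12. This was the comparison that depended most on single arrays: without replicate 1 of MSC day 0, 20 of the 63 genes were called higher. The calls of AURKA, BUB1B, BUB3, CCNA2, CDC20, CDCA8, CDK1, CENPI, KIF22, KIFC1, NDC80, SPAG5, KIF1C and KIF3A were each lost in 1 to 6 of the 9 fits (adjusted p up to 0.145), that of CDK1 only without replicate 1 of the chondrocytes (adjusted p = 0.0578). Calls were gained in 11 genes, 9 of them (BIRC5, CENPP, CKS2, ECT2, HMMR, MAD2L1, NCAPG, SPC24, UBE2C) without an MSC day 28 array, which enters here only through the shared spread, and CENPA and PLK4 without replicate 1 of the chondrocytes. With the donor as a block 38 of the 51 were higher: calls were gained by BIRC5, CCNB2, CENPP (adjusted p = 0.0134), CKS2 (adjusted p = 0.0443), HMMR, MAD2L1 (adjusted p = 0.0231), NCAPG (adjusted p = 0.0365), PLK4 (adjusted p = 0.0414) and SMC4 (adjusted p = 0.00774), and that of CENPI was lost. The 3 comparisons share arrays, so that their counts are not independent of each other.

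**Figure D2:**
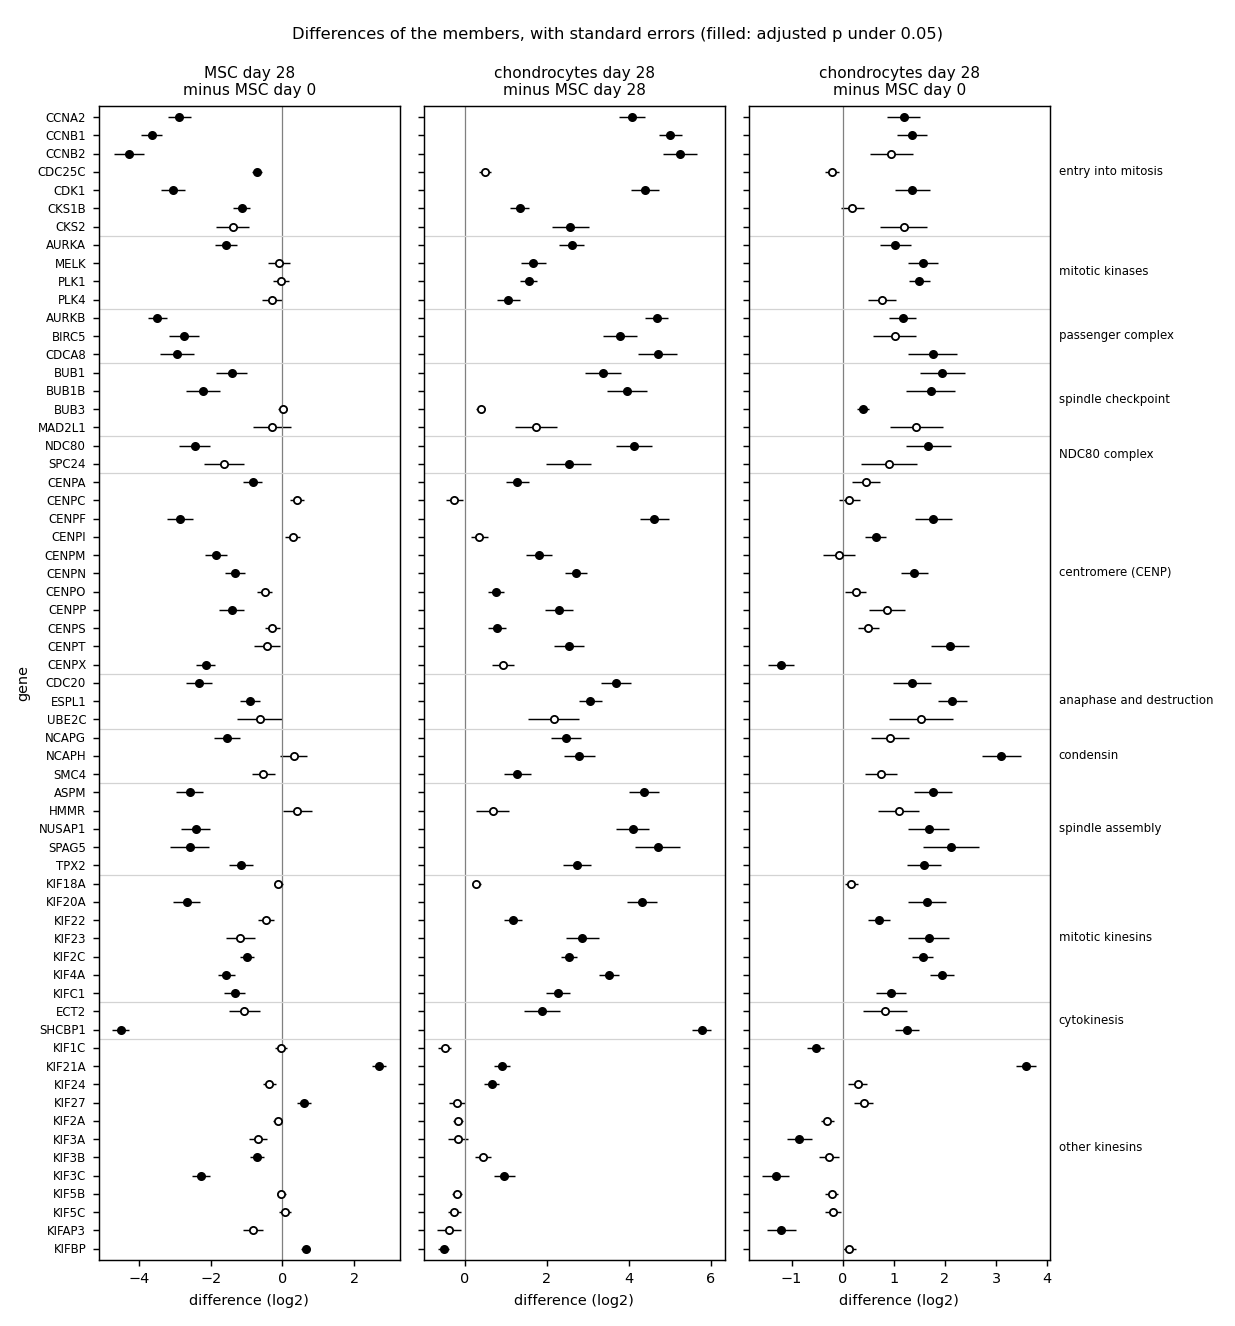
Difference between groups (log2, horizontal axes) with its SE for each of the 63 genes (vertical axis, grouped by role), in 3 panels for the 3 comparisons; filled points have an adjusted p under 0.05. Among the 51 mitosis genes 31 filled points lie left of 0 in the first panel, 42 right of 0 in the middle panel and 30 right of 0 in the last.

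Entry into mitosis rests on cyclins, CDK1 and their helpers. Of these 7 genes (CCNA2, CCNB1, CCNB2, CDC25C, CDK1, CKS1B, CKS2), 6 fell in MSCs, 6 were higher in chondrocytes than in MSC day 28, and 3 were higher in chondrocytes than in MSC day 0. Among all genes 21% fell in MSCs, 8.35% were higher in chondrocytes than in MSC day 28 and 15.1% higher than in MSC day 0. These shares apply to the roles below as well. CCNB1, a cyclin that activates CDK1, had log2 values of 7.14, 7.6 and 7.33 at MSC day 0, 3.32, 3.52 and 4.28 at MSC day 28 and 8.38, 9.18 and 8.6 in chondrocytes. The 3 groups were far apart, with a fall of 3.65 ± 0.29 (12.5-fold, adjusted p = 3.5e-05) in MSCs and a level 5.01 ± 0.29 higher in chondrocytes than in MSC day 28 (32.2-fold, adjusted p = 1.73e-05). Its sister cyclin CCNB2 read 7.33, 8.07 and 7.0, then 2.29, 3.58 and 3.67, then 8.25, 8.97 and 8.04. CCNB2 fell by 4.29 ± 0.42 (adjusted p = 0.000111) and was 5.24 ± 0.42 higher in chondrocytes than in MSC day 28 (37.8-fold, adjusted p = 0.000122). Its donor 1 array of MSC day 28, at 2.29, lay below the 25th percentile of mean signal (2.58). Its arrays of chondrocytes and MSC day 0 overlapped, and the difference of 0.95 ± 0.42 was not called (adjusted p = 0.121, and 0.0475 with the donor as a block).

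CDK1, the kinase at the centre of mitotic entry, read 6.62, 6.75 and 6.62 at MSC day 0, 2.73, 3.8 and 4.31 at MSC day 28 and 8.26, 7.75 and 8.03 in chondrocytes. It fell by 3.05 ± 0.34 (adjusted p = 0.00022) and was 4.4 ± 0.34 higher in chondrocytes than in MSC day 28 (adjusted p = 9.97e-05), with no overlap between any groups. CCNA2, the cyclin of S phase and early mitosis, behaved alike, with differences of -2.88 ± 0.32 and 4.07 ± 0.32. CKS1B, a small subunit that docks onto CDKs, read 10.15, 10.16 and 10.08, then 8.42, 9.11 and 9.44, then 10.3, 10.4 and 10.27. Its MSC day 28 arrays stood below all others, by 1.14 ± 0.23 from day 0 (adjusted p = 0.00493) and 1.33 ± 0.23 from chondrocytes (adjusted p = 0.00655), while chondrocytes and MSC day 0 differed by 0.19 ± 0.23 (95% interval -0.32 to 0.71). For CKS2, of the same family, the difference in MSCs was -1.38 ± 0.46 (adjusted p = 0.0507, and 0.0258 with donors blocked), and chondrocytes were 2.57 ± 0.46 above MSC day 28 (adjusted p = 0.00827). CDC25C, the phosphatase that removes the inhibitory phosphates of CDK1, read 3.7, 3.85 and 4.07, then 3.29, 3.18 and 3.07, then 3.61, 3.77 and 3.61, and fell by 0.7 ± 0.14 in MSCs (adjusted p = 0.005). Its difference between chondrocytes and MSC day 28 was 0.49 ± 0.14 (adjusted p = 0.0596).

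**Figure D3:**
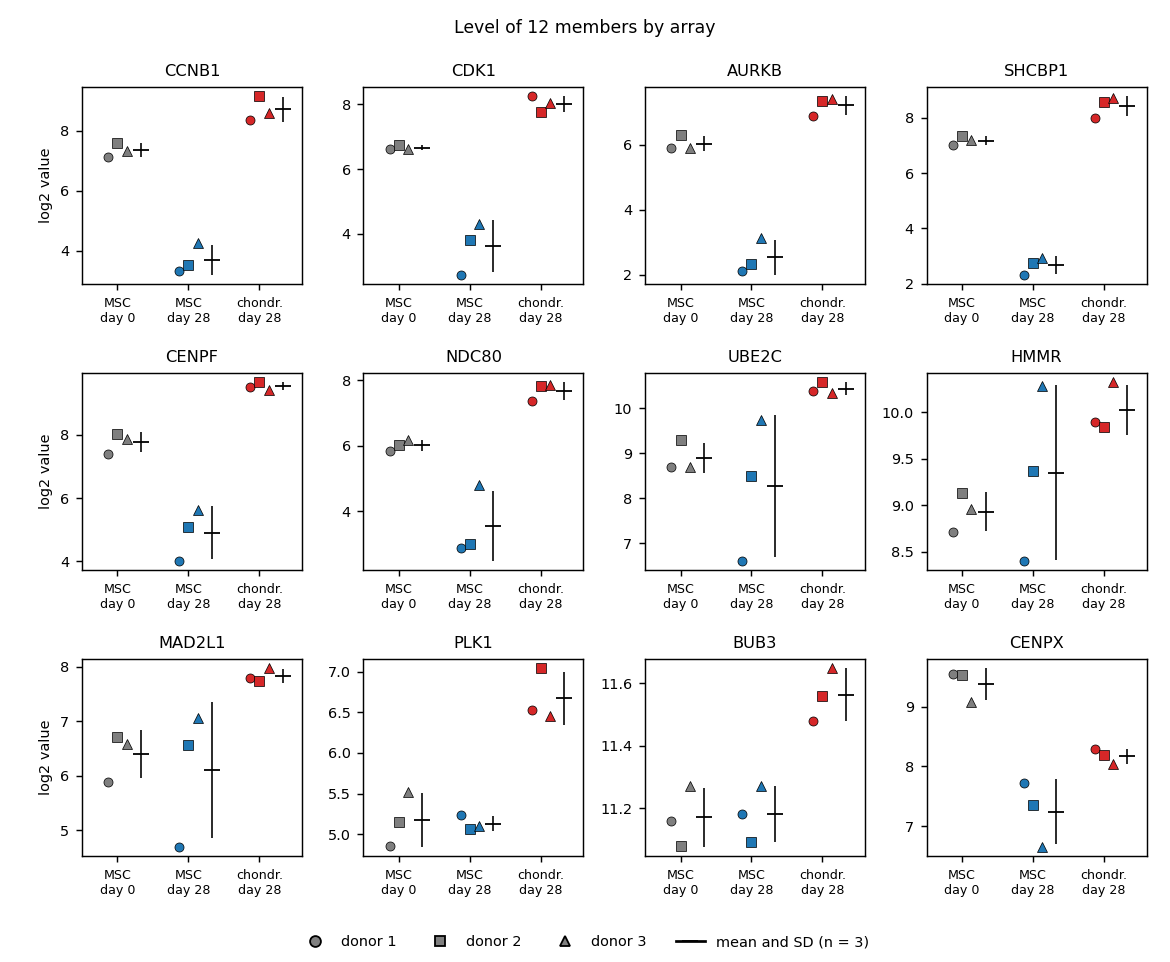
Log2 value (vertical axes, own scale in each panel) of 12 genes on the 9 arrays by group, with circles, squares and triangles for donors 1, 2 and 3 and the mean and SD of each group (n = 3) beside them. CCNB1, CDK1, AURKB, SHCBP1, CENPF and NDC80 separate the 3 groups without overlap, UBE2C, HMMR and MAD2L1 spread widely among the MSC day 28 arrays, and CENPX is highest at MSC day 0.

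Among the mitotic kinases outside the passenger complex, AURKA fell in MSCs and the other 3 did not pass the test there. AURKA, which matures centrosomes and the spindle poles, read 7.12, 7.12 and 7.47, then 4.97, 5.69 and 6.34, then 8.07, 8.48 and 8.26. All 3 groups were separate, with a fall of 1.57 ± 0.3 (adjusted p = 0.00409) and an excess of 2.6 ± 0.3 in chondrocytes over MSC day 28 (adjusted p = 0.000941). MELK, a kinase whose transcript peaks in mitosis, read 5.99, 6.19 and 6.18 at MSC day 0 and 5.27, 6.09 and 6.72 at MSC day 28, so that the MSC groups overlapped (-0.09 ± 0.3). Chondrocytes, at 7.66, 7.63 and 7.79, were above both. PLK1, which acts from entry to cytokinesis, read 4.85, 5.15 and 5.52 at MSC day 0 and 5.23, 5.06 and 5.1 at MSC day 28, a difference of -0.04 ± 0.21 with a 95% interval of -0.52 to 0.44. In chondrocytes it read 6.53, 7.05 and 6.45, above both MSC groups by 1.55 ± 0.21 (adjusted p = 0.00216) and 1.5 ± 0.21 (adjusted p = 0.000765). PLK4, the kinase of centriole duplication, differed by -0.28 ± 0.28 between the MSC groups and was 1.05 ± 0.28 higher in chondrocytes than in MSC day 28 (adjusted p = 0.0451). All 4 kinases were thus called higher in chondrocytes than in MSC day 28, as were 8.35% of all genes, and their median difference was 1.61.

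The chromosomal passenger complex corrects faulty attachments and later guides cytokinesis, and its 3 measured members fell together in MSCs. AURKB, its kinase, read 5.9, 6.29 and 5.9 at MSC day 0, 2.12, 2.34 and 3.14 at MSC day 28 and 6.86, 7.34 and 7.41 in chondrocytes. The measured values differed by -3.49 ± 0.27 (adjusted p = 3.49e-05) in MSCs and by 4.67 ± 0.27 between chondrocytes and MSC day 28 (adjusted p = 1.89e-05). No fold is given for AURKB, since its MSC day 28 mean of 2.53 lay under the 25th percentile of mean signal. CDCA8 (borealin) read 7.15, 8.28 and 7.66, then 3.58, 4.96 and 5.73, then 9.32, 9.46 and 9.6, again without overlap. CDCA8 fell by 2.94 ± 0.48 (adjusted p = 0.00173) and BIRC5 (survivin) by 2.75 ± 0.42 (adjusted p = 0.00113). Chondrocytes exceeded MSC day 28 by 4.7 ± 0.48 in CDCA8 and 3.78 ± 0.42 in BIRC5, and exceeded MSC day 0 by 1.76 ± 0.48 (adjusted p = 0.0219) and 1.02 ± 0.42 (adjusted p = 0.0954, and 0.0451 with the donor as a block).

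Of the 4 spindle checkpoint genes, the kinase BUB1 and its relative BUB1B (BubR1) fell in MSCs, and BUB3 and MAD2L1 did not pass the test. BUB1B read 6.61, 7.59 and 7.11 at MSC day 0, 3.66, 5.21 and 5.77 at MSC day 28 and 8.63, 8.86 and 8.99 in chondrocytes, a fall of 2.22 ± 0.48 (adjusted p = 0.00676) and an excess of 3.95 ± 0.48 (adjusted p = 0.00109). BUB1 read 6.25, 6.48 and 6.28, then 3.8, 4.94 and 6.0, then 8.08, 8.26 and 8.51. It fell by 1.42 ± 0.44 (adjusted p = 0.0373) and was 3.37 ± 0.44 higher in chondrocytes than in MSC day 28 (adjusted p = 0.00178). BUB3, the partner of both, was nearly level, at 11.16, 11.08 and 11.27, then 11.18, 11.09 and 11.27, then 11.48, 11.56 and 11.65. Its MSC groups differed by 0.01 ± 0.12, and chondrocytes were higher by 0.38 ± 0.12 than MSC day 28 (adjusted p = 0.087) and by 0.4 ± 0.12 than MSC day 0 (adjusted p = 0.0372). MAD2L1, the checkpoint's inhibitor of CDC20, read 5.89, 6.71 and 6.58, then 4.69, 6.56 and 7.06, then 7.79, 7.73 and 7.98. The MSC day 28 arrays ran from the lowest to above the highest MSC day 0 array, and all chondrocyte arrays were higher, by 1.73 ± 0.52 (adjusted p = 0.0696, 0.0266 with the donor as a block and 0.0228 without replicate 3 of MSC day 28).

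The NDC80 complex is the microtubule grip of the kinetochore, and 2 of its subunits were measured. NDC80 itself read 5.83, 6.02 and 6.18 at MSC day 0, 2.87, 3.0 and 4.79 at MSC day 28 and 7.36, 7.81 and 7.86 in chondrocytes. The groups were apart, with a fall of 2.45 ± 0.44 (adjusted p = 0.00276) and an excess of 4.12 ± 0.44 in chondrocytes (17.4-fold, adjusted p = 0.000553). SPC24, which anchors the complex to the inner kinetochore, read 8.56, 9.07 and 8.54, then 5.49, 7.82 and 7.97, then 9.71, 9.59 and 9.59. Its MSC difference of -1.63 ± 0.55 missed the threshold (adjusted p = 0.0527, and 0.0363 with the donor as a block), and the donor 1 array at day 28 lay well below the other 2. Chondrocytes were 2.53 ± 0.55 higher than MSC day 28 (adjusted p = 0.02).

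The 11 centromere genes were mixed: 6 fell in MSCs (CENPA, CENPF, CENPM, CENPN, CENPP, CENPX), 8 were higher in chondrocytes than in MSC day 28, and chondrocytes against MSC day 0 gave 4 higher and 1 lower. Among all genes the shares for the first 2 counts were 21% and 8.35%. For chondrocytes against MSC day 0 they were 15.1% higher and 20.9% lower. CENPF, a protein that gathers at the kinetochore in mitosis, read 7.4, 8.03 and 7.86, then 4.01, 5.09 and 5.63, then 9.5, 9.67 and 9.42. It fell by 2.85 ± 0.36 (adjusted p = 0.000403) and was 4.62 ± 0.36 higher in chondrocytes than in MSC day 28 (24.5-fold, adjusted p = 9.97e-05). CENPN, which binds the CENPA nucleosome, read 7.07, 7.04 and 7.33, then 5.26, 5.75 and 6.48, then 8.39, 8.74 and 8.49, with differences of -1.32 ± 0.27 and 2.71 ± 0.27. CENPT, which recruits NDC80 to the centromere, read 4.63, 5.56 and 5.0, then 3.74, 5.01 and 5.15, then 7.12, 7.33 and 7.02. Its MSC groups overlapped (-0.43 ± 0.37), and chondrocytes exceeded them by 2.53 ± 0.37 (adjusted p = 0.00285) and 2.09 ± 0.37 (adjusted p = 0.00252). CENPA, the histone variant that marks the centromere, fell by 0.83 ± 0.27 (adjusted p = 0.0415) and was 1.28 ± 0.27 higher in chondrocytes than in MSC day 28 (adjusted p = 0.0157).

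The remaining centromere genes, most of the constitutive inner centromere, included called and uncalled members. CENPM and CENPP fell by 1.86 ± 0.31 and 1.42 ± 0.35 and were 1.8 ± 0.31 and 2.29 ± 0.35 higher in chondrocytes than in MSC day 28. CENPO, which was below the 25th percentile of mean signal, differed by -0.5 ± 0.2 in MSCs (adjusted p = 0.0877, and 0.0428 with donors blocked). In chondrocytes, against MSC day 28, it was 0.75 ± 0.2 higher (adjusted p = 0.0433), and CENPS 0.78 ± 0.21 higher (adjusted p = 0.0497), with readings of 9.12, 9.16 and 8.96, then 8.49, 8.8 and 9.12, then 9.26, 9.53 and 9.95. CENPC, the scaffold that links centromere and kinetochore, read 6.68, 6.75 and 7.14, then 6.89, 7.33 and 7.54, then 6.98, 6.86 and 7.13, with all groups overlapping and a difference of -0.26 ± 0.2 between chondrocytes and MSC day 28. CENPI, also of the inner centromere, read 6.95, 7.21 and 6.77, then 6.9, 7.36 and 7.52, then 7.66, 7.33 and 7.85. It differed by 0.35 ± 0.21 between chondrocytes and MSC day 28, and its excess of 0.64 ± 0.21 over MSC day 0 (adjusted p = 0.0459) was not called with the donor as a block (adjusted p = 0.0561). CENPX, a partner of CENPS that also serves in DNA repair, ran in another order, at 9.54, 9.53 and 9.07 in MSC day 0, 7.73, 7.35 and 6.65 in MSC day 28 and 8.29, 8.19 and 8.04 in chondrocytes. It fell by 2.14 ± 0.26 in MSCs (adjusted p = 0.000341) and was 1.21 ± 0.26 lower in chondrocytes than in MSC day 0 (2.31-fold, adjusted p = 0.00718). The difference of 0.93 ± 0.26 between chondrocytes and MSC day 28 missed the threshold (adjusted p = 0.0539, and 0.0141 with the donor as a block).

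The 3 genes of anaphase and protein destruction were above MSC day 28 on every chondrocyte array, as were 16.9% of all genes. CDC20, the activator of the anaphase promoting complex, read 5.61, 6.22 and 6.19, then 4.31, 3.0 and 3.73, then 7.11, 7.99 and 6.98. It fell by 2.33 ± 0.37 (adjusted p = 0.00138) and was 3.68 ± 0.37 higher in chondrocytes than in MSC day 28 (adjusted p = 0.000371). ESPL1 (separase) read 4.02, 4.8 and 4.8, then 3.24, 3.69 and 3.97, then 6.31, 7.01 and 6.73, a fall of 0.91 ± 0.28 (adjusted p = 0.0362) and an excess of 3.05 ± 0.28 (adjusted p = 0.000242). UBE2C, the ubiquitin carrier of the complex, read 8.7, 9.29 and 8.7 at MSC day 0, 6.6, 8.5 and 9.73 at MSC day 28 and 10.39, 10.59 and 10.33 in chondrocytes. Its MSC day 28 arrays spread more than those of any other member, with an SD of 1.57, and overlapped day 0 (-0.63 ± 0.63). The excess in chondrocytes was 2.16 ± 0.63 (adjusted p = 0.061, 0.0414 with the donor as a block and 0.00667 without replicate 3 of MSC day 28).

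Condensin, the ring complex that compacts chromosomes, was higher in chondrocytes than in MSC day 28 for its 3 measured subunits. NCAPG read 6.5, 6.84 and 6.7, then 4.49, 4.9 and 6.03, then 7.14, 7.96 and 7.73, and was the condensin gene that fell in MSCs, by 1.54 ± 0.37 (adjusted p = 0.0112). NCAPH read 3.73, 3.92 and 3.21 at MSC day 0, 2.93, 4.46 and 4.39 at MSC day 28 and 6.56, 6.78 and 6.82 in chondrocytes. Its MSC groups overlapped (0.31 ± 0.38), and chondrocytes were higher by 2.79 ± 0.38 than MSC day 28 (adjusted p = 0.00201) and by 3.1 ± 0.38 than MSC day 0 (8.57-fold, adjusted p = 0.000345), the largest excess over MSC day 0 among the 51 mitosis genes. SMC4, the ATPase core, differed by -0.53 ± 0.32 in MSCs (adjusted p = 0.254, and 0.0323 with donors blocked), and it was 1.28 ± 0.32 higher in chondrocytes than in MSC day 28 (adjusted p = 0.0347).

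Of the 5 spindle assembly genes 4 fell in MSCs, the same 4 were higher in chondrocytes in both comparisons, and HMMR was the exception. Among all genes 21% fell, 8.35% were higher in chondrocytes than in MSC day 28 and 15.1% higher than in MSC day 0. SPAG5 (astrin) read 6.23, 6.5 and 6.6, then 3.16, 2.96 and 5.45, then 8.27, 8.63 and 8.78. It fell by 2.59 ± 0.55 (adjusted p = 0.00675) and was 4.7 ± 0.55 higher in chondrocytes than in MSC day 28 (26.1-fold, adjusted p = 0.000949). ASPM, which focuses the spindle poles, read 5.27, 5.99 and 6.12, then 3.39, 2.69 and 3.54, then 6.8, 8.02 and 7.88, with differences of -2.59 ± 0.37 and 4.36 ± 0.37. NUSAP1, which bundles microtubules, fell by 2.42 ± 0.4, and TPX2, which activates AURKA, by 1.15 ± 0.34 (adjusted p = 0.0307). In chondrocytes they were 4.09 ± 0.4 and 2.73 ± 0.34 higher than in MSC day 28. HMMR, which binds both spindle microtubules and the cartilage sugar polymer hyaluronan, read 8.71, 9.13 and 8.96, then 8.4, 9.37 and 10.28, then 9.9, 9.84 and 10.33. Replicate 3 of MSC day 28 reached the chondrocyte level. HMMR differed by 0.42 ± 0.4 in MSCs and by 0.68 ± 0.4 between chondrocytes and MSC day 28 (adjusted p = 0.354, and 0.0422 without that array). Its excess of 1.09 ± 0.4 over MSC day 0 was not called (adjusted p = 0.0655, and 0.0268 with the donor as a block).

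Of the 7 mitotic kinesins 4 fell in MSCs (KIF20A, KIF2C, KIF4A, KIFC1), and 6 were higher in chondrocytes than in either MSC group. Among all genes 21% fell, 8.35% were higher in chondrocytes than in MSC day 28 and 15.1% higher than in MSC day 0. KIF20A, which carries passenger proteins to the midzone, read 6.6, 7.26 and 6.75, then 3.83, 3.81 and 4.97, then 7.9, 8.81 and 8.84. It fell by 2.67 ± 0.37 (adjusted p = 0.000677) and was 4.32 ± 0.37 higher in chondrocytes than in MSC day 28 (19.9-fold, adjusted p = 0.000159). KIF4A, a chromosome motor, read 5.2 on all 3 arrays of MSC day 0, then 3.17, 3.54 and 4.18, then 6.94, 7.37 and 7.12, with differences of -1.57 ± 0.24 and 3.51 ± 0.24. KIF2C, which takes microtubules apart at the centromere, fell by 0.98 ± 0.2 and was 2.54 ± 0.2 higher in chondrocytes, and KIFC1, a minus-end motor, fell by 1.33 ± 0.29 and was 2.27 ± 0.29 higher. KIF23, a motor of the midzone, was 2.86 ± 0.4 higher in chondrocytes than in MSC day 28 (adjusted p = 0.0023), and its MSC difference of -1.17 ± 0.4 missed the threshold (adjusted p = 0.0528, and 0.00825 with the donor as a block). KIF22, which pushes chromosome arms outward, was 1.16 ± 0.22 higher in chondrocytes (adjusted p = 0.0101). KIF18A, at 1.63, 1.5 and 1.74, then 1.46, 1.53 and 1.55, then 1.86, 1.82 and 1.69, was below the 25th percentile of mean signal and was not called in any comparison.

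Cytokinesis was represented by SHCBP1 and ECT2. SHCBP1, a protein of the midbody, read 7.0, 7.33 and 7.18 at MSC day 0, 2.31, 2.73 and 2.94 at MSC day 28 and 8.0, 8.58 and 8.71 in chondrocytes. It fell by 4.51 ± 0.23 (22.8-fold, adjusted p = 3.67e-06) and was 5.77 ± 0.23 higher in chondrocytes than in MSC day 28 (54.5-fold, adjusted p = 4.76e-06). Both were the largest differences among the 63 genes. Its MSC day 28 mean of 2.66 lay just above the 25th percentile of mean signal, 2.58, so that both folds rest on a low signal. In chondrocytes SHCBP1 was also 1.26 ± 0.23 higher than in MSC day 0 (adjusted p = 0.00291). ECT2, the exchange factor that triggers the contractile ring, read 7.87, 8.35 and 8.24, then 6.04, 7.08 and 8.15, then 8.98, 8.86 and 9.09. Its MSC groups overlapped through donor 3 (-1.06 ± 0.43, adjusted p = 0.0959, and 0.00463 without replicate 3 of MSC day 28), and chondrocytes were 1.88 ± 0.43 higher than MSC day 28 (adjusted p = 0.0242).

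Calls among the 12 other KIF genes went both ways. In MSCs 3 rose (KIF21A, KIF27, KIFBP) and 2 fell (KIF3C, KIF3B), with a median of -0.08, where 13.5% of all genes rose and 21% fell. Between chondrocytes and MSC day 28, 3 were higher (KIF21A, KIF3C, KIF24), 1 lower (KIFBP) and 8 not called, with a median of -0.18, where 8.35% of all genes were higher and 4.81% lower. Against MSC day 0, 1 was higher in chondrocytes (KIF21A), 4 lower (KIF1C, KIF3A, KIF3C, KIFAP3) and 7 not called. The median there was -0.24, where 15.1% of all genes were higher and 20.9% lower. The counts were not tested against those shares. KIF21A, a motor that slows microtubule growth, read 4.65, 4.06 and 4.18 at MSC day 0, 7.01, 6.72 and 7.22 at MSC day 28 and 8.06, 7.71 and 7.88 in chondrocytes. It was high in both groups of day 28 cultures, having risen by 2.69 ± 0.2 in MSCs (6.45-fold, adjusted p = 2.53e-05) and standing 3.58 ± 0.2 higher in chondrocytes than in MSC day 0 (adjusted p = 3.84e-06). Its excess of 0.9 ± 0.2 over MSC day 28 (adjusted p = 0.0206) was lost in 4 of the 9 fits without 1 array.

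The kinesin-2 motors carry cargo in cilia and along axons. KIF3C read 6.48, 6.73 and 6.6, then 3.96, 5.02 and 4.03, then 5.33, 5.37 and 5.18, highest in MSC day 0 with no overlap. It fell by 2.27 ± 0.26 (adjusted p = 0.000237) and was 0.96 ± 0.26 higher in chondrocytes than in MSC day 28, a call (adjusted p = 0.0471) lost in 8 of the 9 fits without 1 array. Its relatives KIF3A and KIF3B differed in MSCs by -0.67 ± 0.25 (adjusted p = 0.0763) and -0.71 ± 0.2 (adjusted p = 0.0239). Their adaptor KIFAP3 read 10.34, 9.53 and 10.42, then 9.68, 8.83 and 9.32, then 8.61, 8.93 and 9.14. Its MSC groups overlapped (-0.82 ± 0.29, adjusted p = 0.06, and 0.0333 with the donor as a block), and chondrocytes were 1.2-unit lower on the log2 scale than MSC day 0 (SE 0.29, adjusted p = 0.0121).

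Of the remaining KIF genes, KIF2A, KIF5B and KIF5C were not called in any comparison. KIF5B, a heavy chain of conventional kinesin, read 11.83, 11.67 and 11.68, then 11.73, 11.69 and 11.68, then 11.46, 11.46 and 11.62, with differences of -0.03 ± 0.12 and -0.19 ± 0.12. KIF2A, a microtubule depolymerase that also works at spindle poles, differed by -0.13 ± 0.12 and -0.17 ± 0.12, and KIF5C by 0.07 ± 0.16 and -0.26 ± 0.16, the last at a signal below the 25th percentile. Without overlap of arrays, KIF2A was highest at MSC day 0 (mean 7.82), then MSC day 28 (7.69), and lowest in chondrocytes (7.52). That order is not the one of most mitosis genes. KIF1C was lower in chondrocytes than in MSC day 0 by 0.53 on the log2 scale (SE 0.16, adjusted p = 0.0326). KIFBP, which binds kinesins and blocks them, rose by 0.65 ± 0.13 in MSCs (adjusted p = 0.00417), and KIF27, linked to motile cilia, by 0.6 ± 0.19 (adjusted p = 0.0393). KIFBP was the gene called lower in chondrocytes than in MSC day 28 (-0.52 ± 0.13, adjusted p = 0.0314), and leaving out 1 array ended this call in 5 of 9 fits. KIF24, which acts at centrioles, was 0.65 ± 0.18 higher in chondrocytes (adjusted p = 0.0472), a call that was lost in 8 of the 9 fits and also when donors were blocked (adjusted p = 0.0622).

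**Figure D4:**
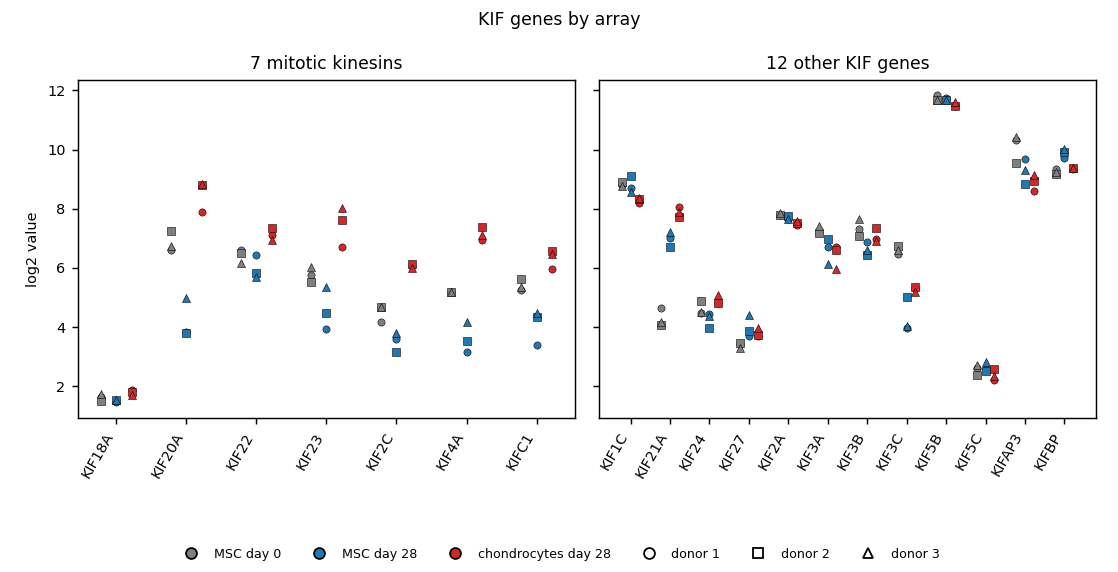
Log2 value (vertical axis) of the 7 mitotic kinesins (left) and the 12 other KIF genes (right) on the 9 arrays, with colours for the groups and shapes for the donors. In 6 of the 7 mitotic kinesins the chondrocyte points lie highest, while among the others KIF21A is low only in MSC day 0 and KIF5B hardly moves.

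The MSC day 28 cultures were spread wider in the mitosis genes than the other groups were. The median SD of the 51 genes over 3 arrays was 0.24 at MSC day 0, 0.68 at MSC day 28 and 0.22 in chondrocytes, where all genes had 0.19, 0.24 and 0.18. Replicate 3 of MSC day 28 was the highest of its group in 42 of the 51 genes (82.4%, against 32.6% of all genes), and replicate 1 the lowest in 37 (72.5%, against 28.1%). The median level relative to each gene's own mean was -1.98, -1.28 and -0.64 on the 3 arrays of MSC day 28, against -0.07, 0.23 and 0.16 at MSC day 0 and 1.18, 1.43 and 1.3 in chondrocytes. Every donor's MSC day 28 culture was thus the lowest of its 3 cultures. Replicate 3 was also an array with low bioC signal. Without both such arrays, 35 of the 51 genes fell in MSCs, 39 were higher in chondrocytes than in MSC day 28 and 29 were higher than in MSC day 0.

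Within donors, the excess of chondrocytes over MSC day 28 had a median of 3.1, 2.43 and 1.92 over the 51 genes for donors 1, 2 and 3, and was positive in 51, 49 and 50 of them. Over MSC day 0 the medians were 1.15, 1.13 and 1.28, with 47, 48 and 46 genes positive. The donors' medians thus lay closer together in the comparison without MSC day 28. With 1 array per donor and group, a difference between donors in these group comparisons could not be tested.

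**Figure D5:**
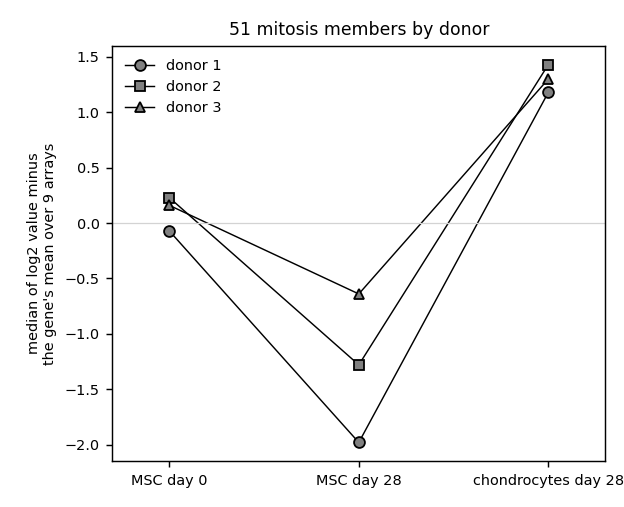
Median over the 51 mitosis genes of the log2 value minus the gene's mean over 9 arrays (vertical axis) in the 3 groups (horizontal axis), with 1 line per donor. The donors lie between -0.07 and 0.23 at MSC day 0, between -1.98 and -0.64 at MSC day 28 and between 1.18 and 1.43 in chondrocytes.

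Other named probe sets of the same gene, where there were any, never gave a call in the opposite direction. Of the 24 genes with several, 6 had another set with another call for MSC day 28 against day 0 (BUB1, CENPN, ESPL1, KIF2C, SPAG5, KIF3B), 9 for chondrocytes against MSC day 28 (BUB1, CENPM, CENPO, ECT2, ESPL1, KIF2C, NCAPH, SMC4, KIF21A) and 13 for chondrocytes against MSC day 0 (ASPM, AURKA, BUB1, BUB3, CDCA8, CENPI, ESPL1, HMMR, KIF1C, KIF2C, NCAPH, SMC4, SPAG5). The second set of BUB1 differed by 0.53 between chondrocytes and MSC day 28 (adjusted p = 0.0708), that of ESPL1 by 0.2 (adjusted p = 0.481) and that of KIF2C by 0.68 (adjusted p = 0.186). For ECT2 the size was alike, at 1.92 (adjusted p = 0.0562). In AURKB, CENPF, KIF20A and TPX2, the second set was called in the same direction as the first in each of the 3 comparisons. CENPF's second set differed by 3.1 between chondrocytes and MSC day 28, and AURKB's by 2.01. Among the 5 sets of HMMR, 1 was called, 1.31 higher in chondrocytes than in MSC day 0 (adjusted p = 0.0271).

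Other genes of the same processes were taken from fixed lists. Of 55 further mitosis genes 35 were measured. In MSCs 12 fell and 4 rose, against 21% and 13.5% of all genes. In chondrocytes 21 were higher and 1 lower than in MSC day 28, against 8.35% and 4.81% of all genes. Against MSC day 0, 23 were higher and 2 lower in chondrocytes, where 15.1% and 20.9% of all genes were. CDCA3, which helps to destroy the CDK1 inhibitor WEE1, fell by 3.13 ± 0.23 and was 4.69 ± 0.23 higher in chondrocytes than in MSC day 28 (adjusted p = 9.08e-06). NCAPG2, of the second condensin, was 2.08 ± 0.15 higher (adjusted p = 6.56e-05), and CDCA2, which directs a phosphatase to chromosomes, 3.38 ± 0.28 higher (adjusted p = 0.000145). MAD2L2, which despite its name serves mainly in DNA repair, was lower by 0.71 on the log2 scale (SE 0.15, adjusted p = 0.0179). The condensin subunit NCAPD2 was among the 4 that rose in MSCs, by 1.86 ± 0.27 (adjusted p = 0.000904). MKI67, TOP2A and FOXM1 had no named probe set.

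The anaphase promoting complex is the ubiquitin ligase that CDC20 activates. Of 12 measured genes 4 fell and 1 rose in MSCs, against 21% and 13.5% of all genes. In chondrocytes 1 was higher and 1 lower than in MSC day 28, close to the shares of all genes (8.35% and 4.81%). UBE2S, a ubiquitin carrier of the complex, was 1.28 ± 0.24 higher in chondrocytes (adjusted p = 0.0111) and the subunit ANAPC5 0.83 lower on the log2 scale (SE 0.18, adjusted p = 0.0178). ANAPC16 differed by -0.5 ± 0.17 (adjusted p = 0.0918). Of 6 measured cohesin genes 2 were higher in chondrocytes than in MSC day 28, against 8.35% of all genes. SGO1, the guardian of sister cohesion in mitosis, was higher by 2.34 ± 0.26 (adjusted p = 0.000765) and SMC1A by 0.83 ± 0.21 (adjusted p = 0.0378). The MSC day 28 mean of SMC1A, 2.22, lay below the 25th percentile of mean signal (2.58). NIPBL differed by -0.66 ± 0.2 (adjusted p = 0.0735).

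Of the G1 cyclins, kinases and E2F genes, which govern the step before DNA replication, 13 were measured. In MSCs 2 rose and 3 fell, close to the shares of all genes (13.5% and 21%). In chondrocytes 3 were higher and 1 lower than in MSC day 28, against 8.35% and 4.81% of all genes. CCNE2, a cyclin of S phase entry, was 1.26 ± 0.19 higher (adjusted p = 0.00326), TFDP1, the partner of E2F factors, 1.08 ± 0.21 (adjusted p = 0.0117), and E2F1 1.25 ± 0.25 (adjusted p = 0.014). The MSC day 28 mean of E2F1, 2.43, lay below the 25th percentile of mean signal (2.58). The G1 cyclin CCND3 moved against the mitotic cyclins in MSCs, with a rise of 2.64 ± 0.2 (adjusted p = 2.65e-05). Its relatives were split. CCND2 had means of 9.02, 10.11 and 9.71 at MSC day 0, MSC day 28 and in chondrocytes, and CCND1 had 5.02, 3.95 and 3.54. Of 9 measured inhibitors of the cycle 4 rose and 1 fell in MSCs, against 13.5% and 21% of all genes. In chondrocytes 0 were higher and 1 lower than in MSC day 28, against 8.35% and 4.81% of all genes. CDKN1A (p21), which blocks CDKs, read 11.22, 10.76 and 11.31, then 12.17, 11.98 and 12.1, then 11.1, 11.42 and 11.23. It was highest at MSC day 28 with no overlap, a rise of 0.99 ± 0.17 (adjusted p = 0.00234), and lower in chondrocytes by 0.83 on the log2 scale (SE 0.17, adjusted p = 0.0157). CDKN1C (p57) rose by 1.79 ± 0.31 in MSCs (adjusted p = 0.00238) and differed by 1.05 ± 0.31 between chondrocytes and MSC day 28 (adjusted p = 0.068), the other way from CDKN1A, and RBL2 by -0.53 ± 0.17 (adjusted p = 0.0892). Of 7 measured regulators of mitotic transcription 1 was higher in chondrocytes than in MSC day 28, against 8.35% of all genes. This was MYBL2, which switches on genes of late cell cycle, higher by 1.32 ± 0.21 (adjusted p = 0.00496). LIN52 and NFYB differed by 0.41 ± 0.18 and -0.45 ± 0.17 without a call.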

How the data were processed

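RNA of 9 cultures was measured, 1 array each. The deposited values are log2 values from RMA; that the authors used it stands in the submitters' processing notes, with the version not given in the sources used here. RMA gives all arrays 1 distribution of intensities, so that a change in total RNA cannot be seen. cDNA was primed at the poly(A) tail and amplified, per the labels' protocols, which favours 3′ ends. Of 24128 probe sets, 112 controls were left out and 24016 tested, of which 13292 had 1 gene symbol, 86 several and 10638 none. Symbols came from the platform annotation, of which 13263 were matched by gene identifier to RefSeq genes (ARS-UCD2.0).

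All 3 groups were fitted together by lmFit and eBayes of limma 3.58.1 under R 4.3.3, with Benjamini-Hochberg adjustment over all probe sets in each comparison and calls at an adjusted p under 0.05. On simulated data for MSC day 28 minus day 0 (24016 probe sets), 46 of 100 differences of 1 and 88 of 100 of 2 were recovered, and 8 of 142 calls were false. The simulation had far fewer changed probe sets than the 3512 higher and 3744 lower calls of the data. Its noise held no donor effect, so that these rates need not hold for the data. The number of arrays limits the precision. Donor numbers in the labels mark arrays of the same calf, and such arrays deviated together from their groups (correlation 0.108 to 0.412); the donor was an alternative, as a block.

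The members and lists were chosen with earlier results of these data known. The text gives every gene by its counts, and values per array for the 2 genes of largest difference and the gene of highest mean in each role, and for others picked after their values were seen. Mitosis genes without a call between chondrocytes and MSC day 28 are named. Alternatives were other scalings, filters, probe set rules and variance models, and leaving out arrays. No sequence was used here.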

Additional observations from a re-analysis of the deposited data

How the results depend on the processing

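The 33 genes called lower at MSC day 28 than at day 0 became 29 to 36 when 1 array was left out and 30 to 39 under the other alternatives. The 45 genes called higher in chondrocytes than in MSC day 28 became 36 to 44 and 37 to 50, and the 31 called higher in chondrocytes than in MSC day 0 became 20 to 38 and 28 to 40. The fall to 20 came without replicate 1 of MSC day 0, and its cause was not tested. With the donor as a block, which pairs arrays of the same calf, the 3 counts were 39, 47 and 39. Across at most 22 alternatives per gene, 30 of 36, 35 of 46 and 22 of 36 calls were kept in all of them. The other probe set of CENPI, chosen by largest SD, differed by -0.15 between chondrocytes and MSC day 0, against 0.64. ANAPC5 differed by -0.22 there as a mean of its probe sets, against 0.83, and RBL2 by -0.19 between MSC day 28 and day 0 with the probe set of largest SD, against 0.57. Centring arrays on 62 ribosomal protein probe sets moved the median of all probe sets from -0.0295 to 0.133 between chondrocytes and MSC day 28, and from -0.0749 to 0.118 between chondrocytes and MSC day 0. Centring on the array median moved them to -0.0947 and -0.194. Over all probe sets the split of higher to lower calls between chondrocytes and MSC day 28 was 1506 to 976, against 2157 to 579 and 1344 to 1359 with these centrings, and between chondrocytes and MSC day 0 it was 3622 to 3823, against 4811 to 2516 and 3110 to 5255. Low signal limits CENPO, KIF18A and KIF5C, and at MSC day 28 also AURKB, E2F1 and SMC1A.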
